A study of Zea mays with 48 samples.

Results

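The response of the F1 hybrid of the maize inbreds B73 and B75 to the spider mite Tetranychus urticae was measured in leaf RNA. The members are the 8 libraries labelled as this F1, 4 from infested and 4 from control leaves, out of 48 libraries in the series. All plants were 22 days old and sampled at leaf 4. Infested F1 leaf sections carried 200 adult female mites for 24 hours inside a wax barrier, and control F1 sections received the barrier without mites. The hybrid was compared with its parents in the same design and experiment, which are B73 (4 control and 4 infested libraries, the B73 replicates that the design text assigns to the B75 experiment) and B75 (4 and 4). It was also compared with the F1 of B73 and the inbred B96 (4 and 4), which was grown in a separate experiment. Which inbred was the seed parent is not given in the sources used here. The libraries are described as biological replicates, but not how many plants each holds, and p-values here weigh differences only against the spread between these libraries.

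Spider mites pierce single leaf cells and feed on their contents. Maize leaves answer such feeding through the jasmonate pathway, which raises transcripts of defence proteins and of enzymes for defensive metabolites, while transcripts for photosynthesis commonly decline. An F1 carries 1 copy of each parental genome in the same nucleus, so a parental difference that lies in the gene's own regulatory sequence gives an intermediate level, while dominant or recessive action of a shared regulator moves the F1 towards one parent. B73 is the inbred behind the maize reference genome, and B75 is an inbred known for resistance to spider mites.

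Depth ranged from 14.45 to 17.45 M gene counts in the F1 controls and from 11.7 to 12.7 M in the infested F1. The first principal component of the 8 F1 libraries held 76.1% of the variance of log2 counts per M counts (CPM). The median SD of log2 CPM between replicates was 0.170 in F1 control and 0.149 in F1 infested leaves, beside 0.153 to 0.184 in the 4 parental groups. The identifiers of the deposited table are those of the B73 RefGen_v4 annotation, and the gene table used here matched 0 of the 44146 that begin with Zm. Genes are therefore given by identifier with no name or role, and the leaf label was not checked against marker genes.

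Mites changed 10384 of 22572 tested genes in the F1 (46%) at a Benjamini-Hochberg adjusted p of 0.05. Of these, 5051 rose (22.4%) and 5333 fell (23.6%). Which direction had more calls turned with the processing, with 5259 rises and 5041 falls under median-of-ratios scaling, 5367 and 5209 in DESeq2, 5331 and 4550 with no filter on low counts, and 5069 and 4410 in a fit of the F1 libraries alone. Rises were larger than falls. Among genes that rose, the median log2 fold change was 0.94, and 2352 rose at least 2-fold (10.4% of genes tested). Among genes that fell, the median was −0.64, and 1291 fell at least 2-fold (5.72%). At a fold of 8 or more there were 601 rises and 28 falls, and at 64 or more 160 rises and 1 fall. All 4 infested libraries lay above all 4 control libraries for 4283 of the genes that rose, and below them for 4171 of those that fell. Over all genes tested, whether called or not, the groups lay apart in these ways for 20.8% and 20.1%.

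**Figure D1:**
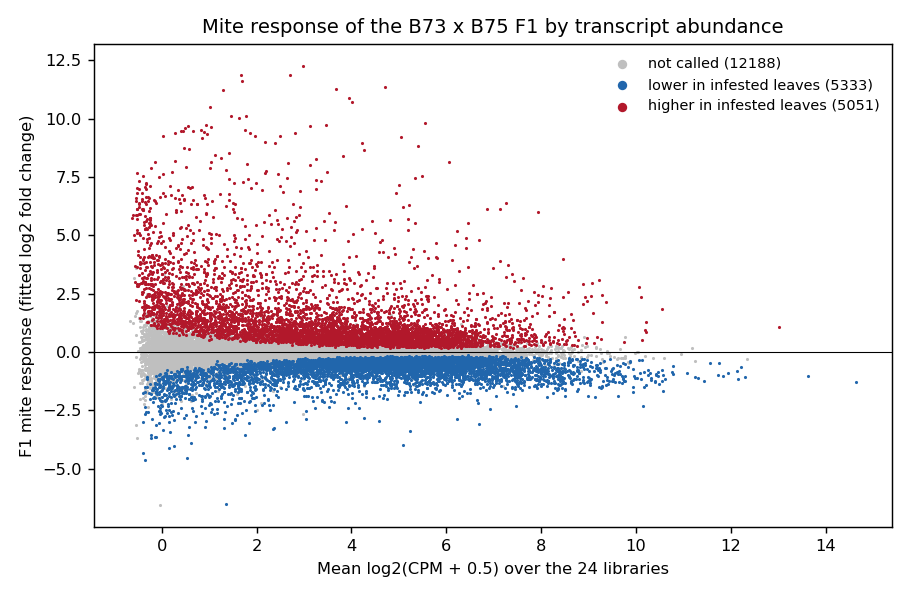
Fitted log2 fold change of infested over control F1 leaves (vertical axis) against mean log2(CPM + 0.5) over the 24 libraries of the experiment (horizontal axis), 1 point per tested gene. The 5051 genes that rose reach far larger fold changes than the 5333 that fell, most of all at low and middle levels, and falls prevail among the most counted genes.

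Direction varied with how strongly a gene was counted. Among the lowest 20% of genes by mean log2(CPM + 0.5) over the 24 libraries, 22.4% rose and 9.9% fell. In the highest 20%, from 44.5 CPM upwards, 18.9% rose and 43.5% fell. The share that rose stayed between 18.9% and 24.7% in all 5 levels, while the share that fell climbed from each level to the next. Large rises were concentrated at low levels, with 923 of at least 2-fold in the lowest level and 218 in the highest. Large falls were most numerous at both ends, with 351 in the lowest level and 397 in the highest. Few counts limit what can be called in the lowest level, and CPM are not divided by transcript length.

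The largest rises were of genes with almost no reads in control leaves. Zm00001d011056 read 0, 0, 0.138 and 0 CPM in the control libraries and 207, 194, 292 and 123 CPM in the infested libraries. Its 2 control counts gave a ratio of 6189 (95% exact counting interval 1713 to 51109) with an adjusted p of 7.9e-12. Zm00001d038703 read 0.0754, 0.122, 0 and 0 CPM in control and 231, 216, 282.5 and 149 CPM in infested leaves. Its 3 control counts gave a ratio of 4427 (1515 to 21470.2) with an adjusted p of 1.3e-12. Both genes were named on the condition that the groups did not overlap. They also rose in both parents, to 132 ± 22.3 and 65.3 ± 35.03 CPM in B73 and to 63.8 ± 48.2 and 37.8 ± 16.1 CPM in B75 (SD, n = 4), and the tests of a difference from either parent did not pass the threshold.

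A set of 15 genes had 0 counts in all 4 F1 control libraries and a mean of at least 5 CPM in infested leaves. With control levels set to 3 counts over the 4 libraries, they were at least 104-fold to at least 636-fold higher in infested leaves. The lower end follows from the choice of at least 5 CPM against this floor of 0.0498 CPM, and is not a result. The top of this set was Zm00001d044680, with 34.1, 38.99, 27.9 and 25.6 CPM in the infested libraries, at least 636-fold higher. Next came Zm00001d007714, with 34.8, 27.4, 23.1 and 22.0 CPM, at least 539-fold higher. All 15 genes rose in B73 and in B75 as well. B75 control leaves also had 0 counts for 10 of them and B73 control leaves for 2. No gene had the opposite pattern of at least 5 CPM in control leaves and 0 counts in infested leaves. With a minimum of 1 CPM the set held 36 genes, and with fewer than 3 control counts allowed it held 28.

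The largest falls were smaller. Among genes with at least 5 CPM in control leaves and no overlap between the groups, the 2 largest were the following. Zm00001d017766 read 122, 63.8, 38.1 and 176 CPM in control and 9.64, 7.90, 2.73 and 5.14 CPM in infested leaves, a log2 fold change of −3.98 ± 0.63 (SE, adjusted p = 2.7e-05). Zm00001d051099 read 7.16, 3.79, 14.8 and 10.5 CPM in control and 0.612, 0.304, 0.295 and 1.87 CPM in infested leaves, −3.55 ± 0.50 (adjusted p = 5.7e-06). The controls of both genes spread several-fold, and the absence of overlap was a condition for naming them. Both genes also fell in B73 and in B75. The differences between the F1 and either parent did not pass the threshold for these genes.

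Changes among the most counted genes moved a large part of the F1 transcript pool. Genes that rose held 10.55% to 13.1% of gene counts in control libraries and 27.85% to 31.5% in infested libraries. Genes that fell held 53.9% to 59.8% and then 35.3% to 37.3%. These shares describe genes chosen by the same comparison and carry no test. The 100 genes most counted in the control leaves of both parents were chosen without the F1. They held 23.1% ± 1.44 of F1 gene counts in control and 14.7% ± 0.44 in infested leaves (SD, n = 4, two-sided exact permutation p = 0.0286, the smallest that 4 against 4 libraries can give). Of these 100 genes, 84 fell and 1 rose in the F1, beside 23.6% and 22.4% of all genes, and their median log2 fold change was −0.99 against −0.03 over all genes. In the parents 89 of them fell in B73 (median −0.91), beside 20.2% of all genes, and 63 in B75 (median −0.65), beside 17.1%. The parental control leaves were used to choose these genes, which itself favours falls in the parents.

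**Figure D2:**
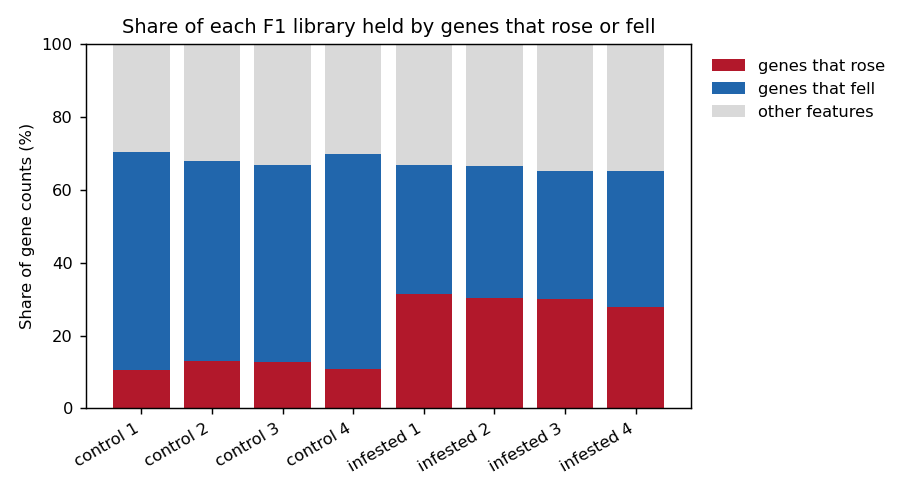
Share of gene counts (%, vertical axis) held in each of the 8 F1 libraries by genes that rose with mites (red), genes that fell (blue) and all other features (grey). Genes that rose hold 10.55% to 13.1% in the control libraries and 27.85% to 31.5% in the infested libraries.

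The most counted gene that fell was Zm00001d038163. It read 43372, 36953, 36259.5 and 41274.5 CPM in control and 16167, 17543, 15291 and 16199 CPM in infested leaves, and fell by 1.28 ± 0.19 on the log2 scale (adjusted p = 1.3e-05). Zm00001d046170 followed with 14829 ± 4373 CPM in control and 7211 ± 628 CPM in infested leaves, −1.04 ± 0.22 (adjusted p = 0.00061). Against these falls, Zm00001d053675 rose from 6368 ± 1109 to 13371 ± 1133 CPM, 1.07 ± 0.16 (adjusted p = 1.3e-05), and Zm00001d031128 from 565.5 ± 183 to 3936 ± 756 CPM, 2.80 ± 0.24 (adjusted p = 4.2e-09). The 4 control and 4 infested F1 libraries did not overlap for any of these 4 genes. In leaf RNA, fewer cells of a type and less RNA per cell cannot be told apart.

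Of 124 tested features with ENSRNA identifiers, 5 rose and 10 fell, with a median log2 fold change of −0.29, beside 22.4% and 23.6% of all features. Of the 124, 102 were in the lowest 20% of features by level, where few counts limit what can be called. In that level 22.4% of all features rose and 9.9% fell, beside 4.03% and 8.07% of those with ENSRNA identifiers. The cause was not tested. Of 15 with GRMZM5G identifiers, 0 rose and 1 fell. Of 154 microRNA precursors in the table, 2 passed the filter on low counts. The zma-MIR156d precursor, whose mature product targets SPL transcription factors that time the change from juvenile to adult growth, read 1.21, 0.671, 2.00 and 1.06 CPM in control and 0.689, 0.836, 1.33 and 0.545 CPM in infested leaves. The zma-MIR168a precursor, whose product targets ARGONAUTE1 in plants, read 5.35, 3.72, 6.75 and 4.90 CPM in control and 5.51, 5.09, 4.28 and 4.13 CPM in infested leaves. The groups overlapped for both, and neither passed the threshold, with −0.52 ± 0.36 (adjusted p = 0.25) for zma-MIR156d and −0.12 ± 0.23 (adjusted p = 0.69) for zma-MIR168a. In B73 both fell, with −1.28 ± 0.38 (adjusted p = 0.011) and −0.60 ± 0.23 (adjusted p = 0.042). Neither was called in B75 (adjusted p = 0.062 and 0.21). The tests of a difference between the F1 and either parent did not pass the threshold. Libraries of poly(A) RNA hold precursors and not mature microRNAs.

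Most F1 calls had a parental counterpart. The same test called 8692 genes in B73 (38.5%), with 4136 higher (18.3%) and 4556 lower (20.2%), and 8762 in B75 (38.8%), with 4900 higher (21.7%) and 3862 lower (17.1%), each with its own controls. Of the 5051 genes that rose in the F1, 2416 rose in both parents, 940 in B73 without a call in the same direction in B75, and 913 in B75 without one in B73. Of the 5333 that fell in the F1, 2001 fell in both parents, 1529 in B73 without B75 and 832 in B75 without B73. At least 1 parent was thus called in the same direction for 84.5% of rises and 81.8% of falls.

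**Figure D3:**
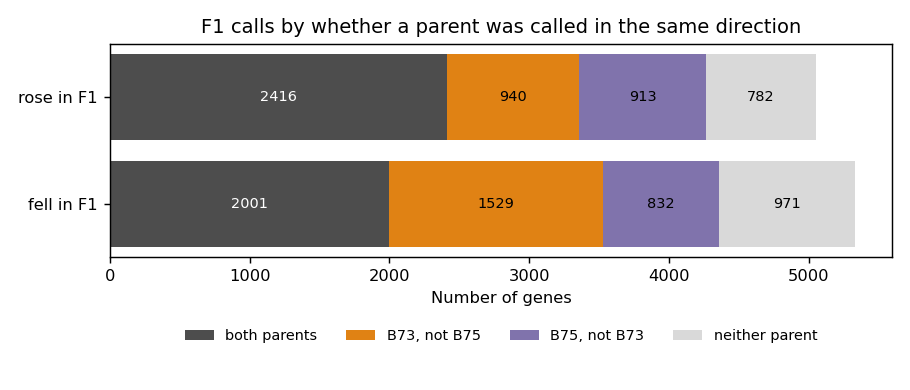
Number of genes (horizontal axis) that rose or fell with mites in the F1, divided by whether both parents, B73 without B75, B75 without B73, or neither parent passed the test in the same direction. Both parents share 2416 of 5051 rises and 2001 of 5333 falls.

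No parent was called in the same direction for 782 genes that rose and 971 that fell in the F1, and of these 775 and 946 had no call in either direction in either parent. These were mild changes. The median log2 fold change of the 775 was 0.64 in the F1, 0.29 in B73 and 0.15 in B75, and that of the 946 was −0.53, −0.22 and −0.18. Choosing genes called in the F1 and in neither parent itself favours larger changes in the F1, so these medians are no evidence of a difference. The test of the difference itself passed the threshold for few of these genes. Among the 775, the F1 response differed from that of B73 for 1 gene, from that of B75 for 9 and from the mid-parent for 0, and among the 946 for 3, 17 and 1. For the mid-parent among the 775, 272 genes had an unadjusted p under 0.05 in edgeR, and DESeq2 called 13.

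Genes called in both parents were nearly all called in the hybrid. Of 2583 genes that rose in both parents, 93.5% rose in the F1, and of 2109 that fell in both, 94.9% fell in the F1. Median log2 fold changes of the shared rises were 1.25 in the F1, 1.12 in B73 and 1.30 in B75. For the shared falls they were −0.73, −0.63 and −0.58. The F1 change exceeded both parental changes for 36.1% of shared rises and 55.9% of shared falls. The latter share was 49.6% with median-of-ratios scaling and 49.0% in DESeq2. In the main fit the F1 change fell short of both for 21.95% of shared rises and 13.8% of shared falls. These shares carry no test, and choosing genes called in both parents itself favours larger parental changes.

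The size of the F1 response differed from that of B73 for 198 genes (0.877%), with 144 higher (0.638%) and 54 lower (0.239%) in the F1. Of the 144, 92 rose in both and 40 rose in the F1 with no call in B73. Of the 54, 21 rose in B73 with no call in the F1 and 12 rose in both. Among the 144, the larger part of the difference lay in control leaves for 95 genes, and the F1 level minus the B73 level had a median of −0.94 log2 units in control and 0.39 in infested leaves. Among the 54 it lay in control leaves for 46, with medians of 1.58 in control and 0.38 in infested leaves. DESeq2 called 419 genes. With single libraries left out, the count was lowest without B73 control replicate 5 (128) and highest without B73 control replicate 6 (271). It was 137 without F1 control replicate 1 and 138 without F1 infested replicate 1. Over the 144 genes, B73 control replicate 5 lay a median of 0.22 log2 units above its group mean, against −0.11 to 0.0031 for the other B73 controls. These genes were chosen by the same comparison, and the cause of the lower count was not tested.

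The 2 genes named for a larger response than in B73 had almost no reads in F1 control leaves. Zm00001d037909 read 0.0754, 0.0610, 0 and 0.124 CPM in F1 control and 61.3, 49.7, 42.5 and 28.99 CPM in F1 infested leaves. B73 had 4.56 ± 3.17 CPM without and 67.5 ± 17.6 CPM with mites, and B75 had 0.0198 ± 0.0396 and 8.69 ± 2.09 CPM, so the F1 was near B75 in control leaves and nearer B73 in infested leaves. The fitted difference from B73 was 5.40 ± 0.85 log2 units (adjusted p = 0.0014), on 4 F1 control counts. Zm00001d048660 read 0.0754, 0.0610, 0 and 0 CPM in F1 control leaves, from 2 counts, and 31.5, 9.27, 16.4 and 3.90 CPM in infested leaves, a ratio of 462 (95% exact counting interval 127 to 3818). Its fitted difference from B73 was 5.27 ± 1.25 (adjusted p = 0.044), and that call was lost under 17 of 28 alternatives, with adjusted p up to 0.11.

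In the other direction, Zm00001d008283 read 1.81, 1.77, 2.00 and 2.11 CPM in F1 control and 11.5, 10.03, 11.9 and 5.53 CPM in F1 infested leaves. The F1 control mean of 1.92 stood beside 2.14 ± 0.62 CPM in B75 and 0.235 ± 0.059 CPM in B73. In infested leaves the F1 mean of 9.73 stood beside 9.25 ± 1.88 CPM in B73 and 2.34 ± 1.04 CPM in B75. The F1 response of 2.33 ± 0.28 differed from that of B73 by −2.92 ± 0.48 log2 units (adjusted p = 0.0025) and from that of B75 by 2.21 ± 0.40 (adjusted p = 0.0048). Zm00001d006525 read 6.86, 7.33, 7.03 and 6.08 CPM in F1 control and 5.97, 4.56, 5.75 and 5.46 CPM in F1 infested leaves, a response of −0.33 ± 0.15 that did not pass the threshold (adjusted p = 0.080). B73 had 0 counts in control and 13 counts over 4 libraries in infested leaves, so the fitted difference of −5.24 ± 0.71 (adjusted p = 0.00089) moves with the prior count of the fit and gives no limit.

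From B75 the F1 response differed for 556 genes (2.46%), with 143 higher (0.634%) and 413 lower (1.83%) in the F1. With median-of-ratios scaling this was 476 genes, 177 higher and 299 lower, with no filter on low counts 420 (181 and 239), and in DESeq2 1182, 584 higher and 598 lower. Of the 413, 201 rose in B75 with no call in the F1, 88 fell in the F1 with no call in B75, 75 rose in both and 36 rose in B75 and fell in the F1. The larger part of the difference lay in control leaves for 266 of the 413, and the F1 level minus the B75 level had a median of 0.72 log2 units in control and −0.36 in infested leaves. For the 143 it lay in control leaves for 52, with medians of −0.37 in control and 0.81 in infested leaves. Single libraries moved this count strongly. Without B75 control replicate 3 it was 1360, and the excess of lower responses turned, with 729 higher and 631 lower. It was 315 and 244 without B75 control replicates 1 and 4, and 201 and 264 without B75 infested replicates 1 and 2. It was 333 without F1 control replicate 2, and 329, 252 and 260 without F1 infested replicates 2, 3 and 4.

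Among genes with F1 groups that did not overlap and at least 5 CPM in the higher of them, Zm00001d052137 had the largest positive difference from B75. It read 0.0754, 0.610, 0.138 and 0.248 CPM in F1 control and 8.65, 8.06, 5.46 and 4.05 CPM in F1 infested leaves, while B75 control libraries ranged from 0.418 to 9.66 CPM and B75 infested libraries from 0.805 to 3.16 CPM. The difference was 5.64 ± 0.90 log2 units (adjusted p = 0.0019). Zm00001d010284 rose from 0.391 ± 0.515 to 24.7 ± 5.56 CPM in the F1, and B75 had 1.00 ± 0.55 CPM in control and 5.48 ± 3.05 CPM in infested leaves, a difference of 3.36 ± 0.82 (adjusted p = 0.031) that was lost under 6 of 28 alternatives, with adjusted p up to 0.10.

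Zm00001d033633 read 30.5, 38.5, 34.1 and 30.7 CPM in F1 control and 231, 261.5, 157.5 and 141 CPM in F1 infested leaves. It rose in all 3 genotypes, by 2.56 ± 0.20 in the F1, 1.52 ± 0.19 in B73 and 5.30 ± 0.24 log2 units in B75. B75 began at 1.71 ± 0.65 CPM and reached 67.2 ± 12.8 CPM, and the F1 response differed from it by −2.73 ± 0.30 (adjusted p = 4.5e-05). Zm00001d003044 read 77.3, 48.4, 33.9 and 58.4 CPM in F1 control and 11.8, 11.9, 8.63 and 9.12 CPM in F1 infested leaves, and also fell in B73, where control leaves had 64.3 ± 17.6 and infested leaves 24.0 ± 5.95 CPM. B75 had 0.366 ± 0.239 and 0.472 ± 0.165 CPM, from 22 and 27 counts. The difference from B75 was −2.78 ± 0.66 (adjusted p = 0.028), a call lost under 6 of 28 alternatives, with adjusted p up to 0.076.

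Against the mean of the parental responses on the log2 scale, the F1 differed for 22 genes (0.0975%). The F1 response was higher for 14 (0.062%) and lower for 8 (0.0354%). At an unadjusted p of 0.05 there were 2214. For all 14, the F1 level in infested leaves was nearer to the higher parent, and for 10 of them its level in control leaves was nearer to the lower parent. Choosing genes with a larger F1 response itself favours such levels. The fitted F1 response lay outside the range of both parents for 11 of the 14, a count of fitted values that the same choice favours. Over all genes tested, 4 passed the test against each parent with a higher F1 response. The mean of log2 responses is not the response of the mean parental level. Against the response of the mean parental CPM, a scale chosen after the data were seen and carrying no test, 12 of the 14 differed by at least 2-fold, and 2 of the 8. All 14 kept their sign on that scale and 6 of the 8 did, while Zm00001d006525 (0.0889) and Zm00001d002848 (0.117, named after its value was seen) turned to a higher F1 response. The count was 55 without B73 control replicate 6, 14 without F1 control replicate 1, and 171 in DESeq2.

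**Figure D4:**
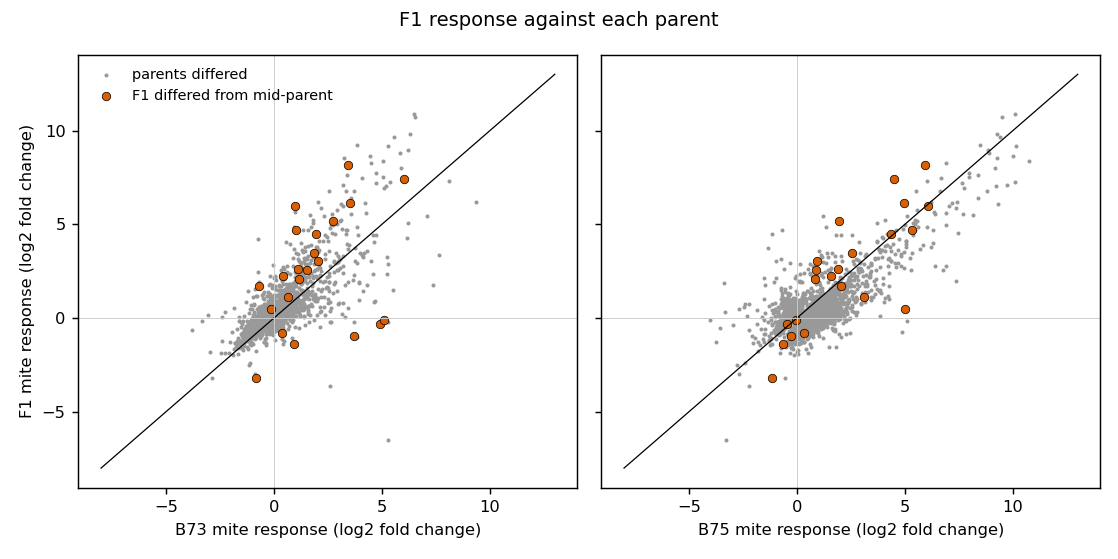
F1 mite response (log2 fold change, vertical axis) against the response of B73 (left) and of B75 (right). Grey points are the 2077 genes whose parental responses differed, orange points the 22 genes whose F1 response differed from the mid-parent, and the diagonal marks equal responses. The F1 response is above the mid-parent for 14 of the 22 and below it for 8.

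The parental responses themselves differed for 2077 genes (9.2%), the B75 response being above that of B73 for 1475 (6.53%) and below it for 602 (2.67%). Zm00001d031934 had the largest departure from the mid-parent among the 22 genes that passed the test. It read 2.94, 8.61, 3.24 and 6.45 CPM in F1 control and 1721, 1763, 1422 and 1224 CPM in F1 infested leaves. B73 had 146.5 ± 74.3 CPM in control and 1557 ± 107 CPM in infested leaves, and B75 had 0.884 ± 1.11 and 49.6 ± 26.9 CPM. The F1 thus held 0.0721 of the mean parental CPM in control leaves and 1.91 of it in infested leaves. Its response of 8.16 ± 0.58 exceeded the mid-parent by 3.48 ± 0.62 log2 units (adjusted p = 0.018), a call lost without B75 control replicate 1 and without F1 control replicate 1, with adjusted p up to 0.15. The F1 response was 4.75 ± 0.64 above that of B73 (adjusted p = 0.00035). Its difference from that of B75, 2.20 ± 0.83, did not pass the threshold (adjusted p = 0.15).

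For Zm00001d012561 the F1 stood at the level of B75 in infested leaves. Control leaves held like levels in all lines, with 56.2, 45.8, 52.8 and 56.4 CPM in the F1 and means of 54.5 ± 4.27 in B73 and 54.9 ± 1.49 in B75. Infested F1 libraries read 3594, 3592, 3595 and 2612 CPM, beside 3654 ± 770 CPM in B75 and 107 ± 17.97 CPM in B73. The F1 response of 5.99 ± 0.18 was 5.02 ± 0.22 log2 units above that of B73 (adjusted p = 8.2e-13). From that of B75 it differed by −0.07 ± 0.20 (adjusted p = 0.91). In infested leaves the F1 reached 1.78 times the mean parental CPM. Its difference from the log2 mid-parent was 2.47 ± 0.18 (adjusted p = 5.2e-08).

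**Figure D5:**
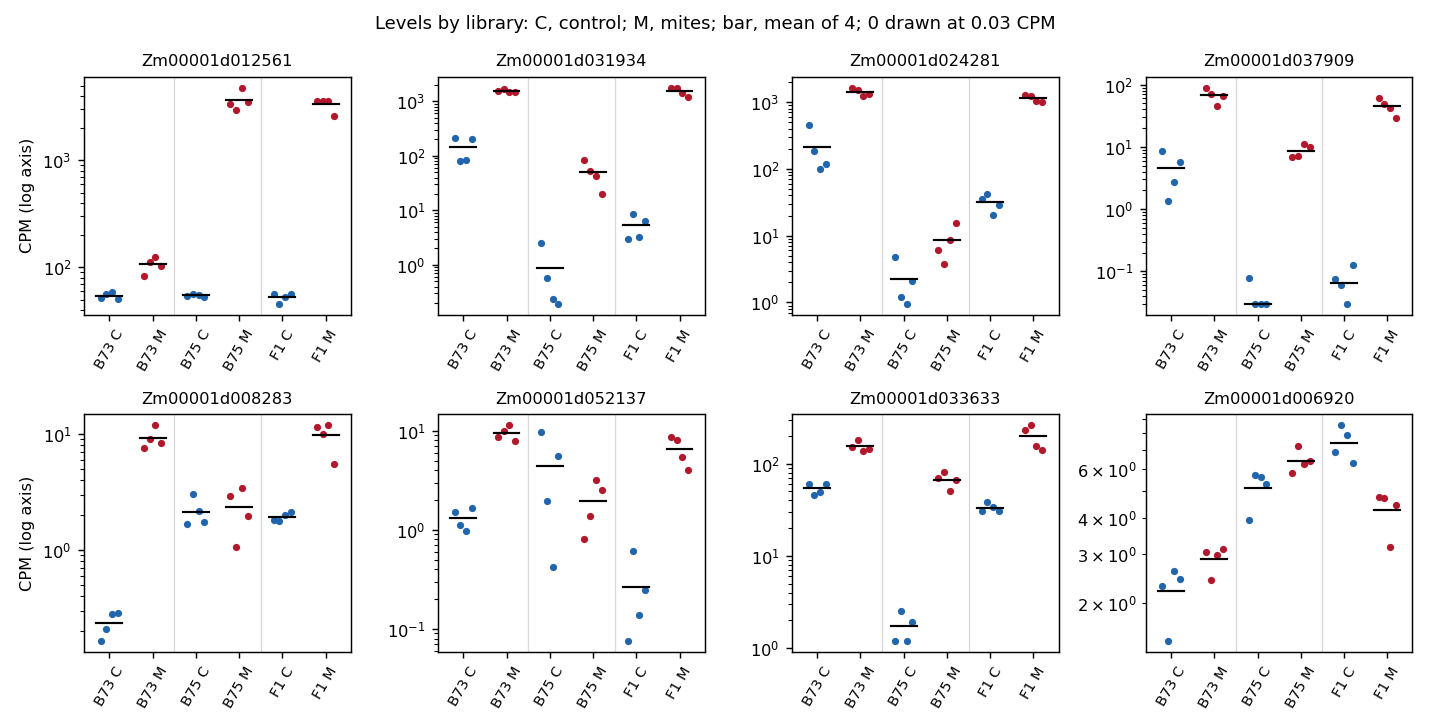
CPM per library (log axis) of 8 genes in control (C, blue) and mite-infested (M, red) leaves of B73, B75 and their F1, with 4 libraries per group, a bar at the mean, and 0 drawn at 0.03 CPM. For Zm00001d012561 the infested F1 libraries lie at 2612 to 3595 CPM, among those of B75, while for Zm00001d031934 they lie at 1224 to 1763 CPM, around those of B73.

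The F1 response passed the test against each parent in the same direction for 6 genes, chosen here after their values were seen. Both tests use the same F1 libraries, so they are not independent. Zm00001d024281 had 31.5 ± 9.28 CPM in control and 1144 ± 136 CPM in infested F1 leaves, beside 214 ± 162 and 1426 ± 176 CPM in B73 and 2.27 ± 1.77 and 8.50 ± 5.08 CPM in B75. Its F1 response was 2.45 ± 0.59 log2 units above B73 (adjusted p = 0.046), 3.25 ± 0.68 above B75 (adjusted p = 0.012) and 2.85 ± 0.54 above the mid-parent (adjusted p = 0.029). These calls were lost under 18, 1 and 9 of 28 alternatives, with adjusted p up to 0.14, 0.058 and 0.084. The other genes with a larger rise in the F1 were Zm00001d011377, which reached 123 ± 38.04 CPM from 29.3 ± 1.52, Zm00001d024853, which reached 75.9 ± 9.45 from 21.6 ± 3.07, and Zm00001d028469, which reached 14.97 ± 1.25 from 2.53 ± 0.59. Against B73 the calls of these 3 were lost under 12, 20 and 19 of 28 alternatives, with adjusted p up to 0.086, 0.14 and 0.11. Against B75 that of Zm00001d024853 was lost under 9 of 28, with adjusted p up to 0.079, and those of Zm00001d011377 and Zm00001d028469 under 0.

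The remaining pair of the 6 fell more in the F1. Zm00001d006920 read 6.86, 8.55, 7.93 and 6.27 CPM in F1 control and 4.74, 4.71, 3.17 and 4.44 CPM in F1 infested leaves, a log2 fold change of −0.79 ± 0.17 (adjusted p = 0.00054). Neither parent was called for it, with 0.38 ± 0.19 in B73 (adjusted p = 0.11) and 0.32 ± 0.17 in B75 (adjusted p = 0.14). The F1 response differed from the mid-parent by −1.14 ± 0.21 log2 units (adjusted p = 0.021), a call lost under 2 of 28 alternatives, with adjusted p up to 0.082. Zm00001d043423 had 2.86 ± 0.89 CPM in control and 0.304 ± 0.061 CPM in infested F1 leaves, beside 2.92 ± 0.66 and 1.61 ± 0.21 CPM in B73 and 1.59 ± 0.51 and 0.711 ± 0.369 CPM in B75. Its F1 response differed by −2.35 ± 0.47 from B73 (adjusted p = 0.013) and by −2.07 ± 0.50 from B75 (adjusted p = 0.030), and the latter call was lost under 9 of 28 alternatives, with adjusted p up to 0.11.

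Some genes were read in 1 parent and hardly in the other. A gene was placed here if a parent reached at least 5 CPM in control or infested leaves while the other had fewer than 3 counts over its 8 libraries. This choice does not use the F1. It uses the parental level by which the F1 level is divided below, which favours lower ratios. For 133 genes read in B73 only, the F1 held a median of 0.506 of the B73 level in control leaves and 0.492 in infested leaves. For 181 genes read in B75 only, it held 0.434 of the B75 level in control and 0.489 in infested leaves. Of the 133, 18 rose and 28 fell in the F1, and 12 rose and 18 fell in B73, with 11 rises and 14 falls shared. Of the 181, 11 rose and 43 fell in the F1, and 11 rose and 69 fell in B75, with 7 rises and 33 falls shared. The shares of 13.5% and 6.08% that rose in the F1 stand beside 22.4% of all genes, and those of 21.1% and 23.8% that fell beside 23.6%. Of all genes, 18.3% rose and 20.2% fell in B73, and 21.7% rose and 17.1% fell in B75. The parental calls use the levels by which the genes were chosen. The F1 response differed from that of the parent with reads for 0 of the genes in either set by edgeR's quasi-likelihood test. An unadjusted p under 0.05 was found for 7 of the 133 and 21 of the 181, DESeq2 called 3 in each set, and a difference that misses the threshold does not show equal responses.

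The F1 of B73 and B96 gave a largely shared response. In a fit of both hybrids, 3611 genes rose in both, which is 72.3% of the 4996 rises of the B75 hybrid and 82.2% of the 4395 of the B96 hybrid. Falls were shared for 2976 genes, 71.0% of 4189 and 73.2% of 4065. Calls went in opposite directions for 10 genes. The size of the response differed for 75 of 22266 genes (0.337%), 44 higher (0.198%) and 31 lower (0.139%) in the B75 hybrid, while 1634 had an unadjusted p under 0.05. All 44 rose in the B75 hybrid. Each hybrid had its own controls, but the experiments were separate, so this fit cannot tell the hybrid from the experiment. B73 was grown in both experiments, but its responses in them were not compared here. The count was 36 and 43 without B75-F1 control replicates 1 and 2, 41, 46 and 39 without its infested replicates 1, 2 and 3, 42 and 38 without B96-F1 control replicates 1 and 2, and 47 and 48 without its infested replicates 2 and 3. DESeq2 called 216.

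By the same rule of no overlap and level, Zm00001d012561 had the largest positive difference between the hybrids. In the B96 hybrid it went from 53.1 ± 7.39 to 154 ± 32.2 CPM, a response of 1.54 ± 0.17, and the response of the B75 hybrid was larger by 4.48 ± 0.24 log2 units (adjusted p = 6e-08). Zm00001d007312 read 0.528, 0.427, 0.689 and 0.496 CPM in control and 289, 276, 181 and 121 CPM in infested leaves of the B75 hybrid. The B96 hybrid had 32.3 ± 10.7 CPM in control and 846 ± 59.2 CPM in infested leaves, so the B75 hybrid had the larger response, by 3.97 ± 0.44 (adjusted p = 0.00041), with lower levels in both states.

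Both genes named for a lower response in the B75 hybrid had higher levels in its control leaves. Zm00001d016277 read 1.28, 1.40, 0.965 and 1.12 CPM in control and 12.6, 16.3, 10.2 and 6.62 CPM in infested leaves of the B75 hybrid, while the B96 hybrid had 4 control counts (0.0654 ± 0.0541 CPM) and 13 ± 1.77 CPM in infested leaves. The difference was −4.12 ± 0.56 (adjusted p = 0.0027). Zm00001d015054 read 219, 167.5, 216 and 228 CPM in control and 910, 1047, 1158.5 and 1067 CPM in infested leaves of the B75 hybrid, while the B96 hybrid went from 7.46 ± 3.24 to 557 ± 565 CPM. Its difference of −3.86 ± 0.74 (adjusted p = 0.034) was lost under 11 of 20 alternatives, with adjusted p up to 0.091.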

How the data were processed

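Leaf RNA was read from stranded poly(A) libraries, per the labels' protocols. The authors deposited raw whole-number read counts for each gene feature, made with STAR 2.5.3a, HTSeq 0.9.1 and the B73 RefGen_v4 build, per the submitters' processing notes. HTSeq's options are not given in the sources used. All genotypes were counted on the B73 genome, so reads of B75 alleles that align poorly may be lost, and how far was not tested. Genes with near-identical copies could not be recognised without names, and their counts are uncertain. The 5 summary lines for unassigned reads held 15.1% to 22.8% of reads in the F1 libraries and were left out before scaling and testing. The lowest chi-square per gene between F1 replicates was 5.4, so no library looked like a repeat of another.

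Group means of the 24 libraries of the B75 experiment were fitted together with edgeR 4.0.16 in R 4.3.3 (filterByExpr with a minimum count of 10, TMM scaling, quasi-likelihood test, Benjamini-Hochberg adjustment over all 22572 genes, threshold 0.05). Differences of responses are interaction contrasts of that fit, and the hybrids were compared in a fit of their 16 libraries. The script was tested on simulated data. CPM use TMM-scaled library sizes, levels are mean ± SD of 4 libraries, and log2 fold changes are ± SE, taken as the fold change over the root of the F statistic. "Rose" and "fell" are used for genes past the threshold. Counting intervals and floors of 3 counts cover counting error only.

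Alternatives were median-of-ratios scaling, DESeq2 1.42.0, no filter, a replicate block, the F1 libraries alone and leaving out each library in turn. The genes named are the 2 largest in each direction with groups that do not overlap and at least 5 CPM, per comparison, with the most counted genes of some sets and all tested microRNA precursors. For 9 gene lists (benzoxazinoid, jasmonate, lipoxygenase, terpene, phenylpropanoid, defence protein, ethylene and salicylate, C4 and photosystem genes) 0 identifiers were matched, so none gave a value. The members, lists and rules were chosen with earlier results of these data known.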

Additional observations from a re-analysis of the deposited data

Results flagged for a closer look

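Chance puts about 1 in 20 groups of 4 libraries on the list of groups with 1 library far from the others. Zm00001d011056 is on it because the highest F1 control library had 0.138 CPM and the others 0. Zm00001d010284 is on it because F1 control replicate 2 had 1.16 CPM, against 0.0754 to 0.207 CPM in the others. Zm00001d012561 is on it because F1 infested replicate 4 had 2612 CPM, against 3592 to 3595 CPM in the others.

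The tests of a difference between responses passed the threshold for 198 genes against B73, 556 against B75, 22 against the mid-parent and 75 between the hybrids. The named differences from B73 were 5.40 for Zm00001d037909, 5.27 for Zm00001d048660, −5.24 for Zm00001d006525 and −2.92 for Zm00001d008283, all in log2 units. Those from B75 were 5.64 for Zm00001d052137, 3.36 for Zm00001d010284, −2.78 for Zm00001d003044 and −2.73 for Zm00001d033633. Those from the mid-parent were 3.48 for Zm00001d031934, 2.85 for Zm00001d024281, −2.55 for Zm00001d006525 (0.0889 on the linear scale, where it turns) and −1.14 for Zm00001d006920. Between the hybrids they were 4.48 for Zm00001d012561, 3.97 for Zm00001d007312, −4.12 for Zm00001d016277 and −3.86 for Zm00001d015054.

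Outside the gene counts, reads that fell on more than one gene were 0.653% ± 0.022 of all reads in infested F1 libraries and 0.592% ± 0.028 in control libraries (SD, n = 4), without overlap (two-sided exact permutation p = 0.0286).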

How the results depend on the processing

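The F1 response held between 8988 and 10785 calls when single libraries were left out, 10300 with median-of-ratios scaling, 10576 in DESeq2, 9881 without a filter, 11006 with the replicate block, 9479 with the F1 libraries alone and 9796 with these and the block. Genes changed at least 2-fold numbered 3315 to 3962 when single libraries were left out. The calls of the 10 genes named for their F1 response were lost under 0 of 30 alternatives. This was not run for the F1 response of genes named in other comparisons. Differences of responses were less stable. With single libraries left out they ranged from 128 to 271 against B73, 201 to 1360 against B75, 14 to 55 against the mid-parent and 36 to 93 between the hybrids. DESeq2 gave 419, 1182, 171 and 216. The cause was not tested. Genes with 0 control counts numbered 36 at 1 CPM, 28 with under 3 counts and 14 to 18 with single libraries left out. On the linear scale Zm00001d006525 turned to 0.0889 above the mid-parent, from −2.55.

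The labels describe a randomized block arrangement but do not say that replicate numbers mark its blocks. The replicate block gave 261 calls against B73, 787 against B75, 37 against the mid-parent and 125 between the hybrids. Deviations of same-numbered F1 control and infested libraries correlated at 0.0406 to 0.352, over 0.1 for 3 of 4 pairs, short of the condition that every pair exceed 0.1, so the fit without the block was kept. Each of 4 control libraries and 2 of 4 infested libraries correlated best with its own number. Same-numbered F1 control and infested libraries also fell in the same run of consecutive library numbers, and the replicate block was built from these runs. Replicate numbers may thus mark shared conditions, and the p-values of the main fit take no account of them. The gene list alternative was not run because no member was matched. Counts limit what can be called at low levels, and the number of libraries limits the precision of every difference.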
